A study of Mus musculus with 18 samples.

Results

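The lysosomal cathepsin genes *Ctsk*, *Ctsb*, *Ctsd*, *Ctsl* and *Ctss* were followed in the articular cartilage of mouse knees after destabilisation of the medial meniscus (DMM), a surgical model of post-traumatic osteoarthritis. The members are all probes that the platform annotation assigns to these 5 symbols, 6 of 22999 deposited probes, and 5 of 11499 annotated genes. *Ctsb* had 2 probes and every other gene 1. The cartilage covered the medial tibial plateau and was taken by micro-dissection from male C57Bl6/J mice. The groups were DMM and contralateral cartilage at 2, 4 and 8 weeks post surgery, when the mice were aged 12, 14 and 18 weeks. The right knee was operated, the left knee of the same mice was left unoperated, and there was no sham-operated knee. Each group had 3 arrays, 18 in all, and each array held RNA pooled from 8 mice. The 3 pools of a group came from separate sets of mice, and the week and the age of the mice cannot be told apart.

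Cathepsins are proteases that are made as inactive precursors, sorted to the lysosome and activated at acid pH, where they degrade proteins taken up or recycled by the cell. Cathepsins K, S, L and B are cysteine proteases of the papain family and cathepsin D is an aspartic protease. When secreted they can also act on matrix outside the cell, and cathepsin K is known as the enzyme that osteoclasts use to cut triple-helical collagen in bone, and as a collagenase of cartilage and synovium.

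Of the 6 probes, that of *Ctsk* had the largest fold at 2 weeks: it was 2.87-fold higher in DMM cartilage than in contralateral cartilage. Its fold was 1.68 a fortnight later and 1.11 at the last time point, neither past the threshold. Both *Ctsb* probes were also higher at 2 weeks, by 1.45-fold and 2.09-fold. The values of *Ctss* and *Ctsl* were 1.46-fold and 1.41-fold without passing the test, and *Ctsd* was at 0.97-fold. At 2 weeks 3 of the 6 probes were higher in DMM cartilage at an adjusted p under 0.05 (limma, Benjamini-Hochberg over all probes), against 3.33% of all probes. Counted by the brightest probe of each gene, 2 of 5 genes were higher, against 4.07% of all genes. The members were chosen with earlier results of these data known, and the study listed *Ctsk* and *Ctsb* among its changes at 2 weeks. These counts are therefore not independent evidence about cathepsins. No member passed at 4 weeks, when 0.639% of all probes did, or at 8 weeks, when 0% of all probes did. At an unadjusted p under 0.05 there were 2995 probes at 4 weeks and 1993 at 8 weeks.

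The bases upstream of the start of *Ctsk*, the gene with the largest change, are shown beside those of *Ctsd*, which had the smallest difference at 2 weeks. They are the 250 bases before each gene's start, from RefSeq on GRCm38.p6, *Ctsk* at chr3:95498960-95499209 on the plus strand and *Ctsd* at chr7:142387828-142388077 on the minus strand. Capitals mark GAGGAAG or its reverse complement, a core sequence bound by the myeloid factor PU.1, in *Ctsk*, and the E-box CACGTG, bound by the lysosomal gene regulators of the TFEB family, in *Ctsd*.
Ctsk: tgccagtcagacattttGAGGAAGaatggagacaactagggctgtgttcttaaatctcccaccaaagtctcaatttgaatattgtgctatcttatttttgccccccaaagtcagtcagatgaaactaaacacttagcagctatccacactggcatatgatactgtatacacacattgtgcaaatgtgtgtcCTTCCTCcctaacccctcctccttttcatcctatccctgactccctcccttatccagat
Ctsd: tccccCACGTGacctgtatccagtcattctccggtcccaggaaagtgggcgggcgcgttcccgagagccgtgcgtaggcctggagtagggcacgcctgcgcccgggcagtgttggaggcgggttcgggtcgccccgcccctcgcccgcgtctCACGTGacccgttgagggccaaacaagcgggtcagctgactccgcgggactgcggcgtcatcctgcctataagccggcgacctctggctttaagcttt

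These 2 motifs were chosen for display after the matches were seen. The table held promoters for 4 of the 5 members, *Ctsk*, *Ctss*, *Ctsl* and *Ctsd*. In the 250 bases, on both strands, 9 motifs were searched. GAGGAAG or its reverse complement began at bases -233 and -59 in *Ctsk*, where -1 is the base before the start of the gene, and was absent from the windows of *Ctss*, *Ctsl* and *Ctsd*; 10.6% of 32851 mouse promoters hold it. CACGTG began at -245 and -98 in *Ctsd* and at -236 in *Ctsl*, and 6.02% of promoters hold it. The longer TCACGTGA, which contains the E-box, was in the window of *Ctsd* at -99 and in 0.785% of promoters. A GC box GGGCGG was at -204 and -117 in *Ctsd* and at -55 in *Ctss*, with 32.7% of promoters holding it, and TATAAA was at -233 in *Ctss*, with 12.4%. No window of the 4 held the M-box TCATGTG (3.25% of promoters), CACATG (12.3%), the AP-1 site TGAGTCA (4.46%) or TTCCGG (12.0%). In the RefSeq annotation *Ctsk* and *Ctss* are adjacent protein-coding genes on chromosome 3.

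Values are log2 intensities as the authors normalised them, and each is given for arrays 1, 2 and 3 of its group. The signal of a probe depends on its sequence as well as on its transcript, so levels are compared only within a probe. The brighter *Ctsb* probe averaged 10.9 over the 18 arrays, with 99.1% of probes dimmer. *Ctss* averaged 8.26 with 86.1% dimmer, *Ctsd* 7.84 with 80.8% dimmer, *Ctsk* 7.73 with 79.0% dimmer and the dimmer *Ctsb* probe 6.33 with 41.5% dimmer. *Ctsl* averaged 5.77 and only 4.23% of probes were dimmer, so that its signal lay near the bottom of the array. In tissue pools such as these, fewer cells of a type and less RNA per cell cannot be told apart.

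*Ctsk* encodes the collagen-cutting cathepsin K. At 2 weeks its log2 intensity was 8.69, 8.56 and 8.88 in DMM cartilage, against 7.50, 6.70 and 7.38 in contralateral cartilage. All DMM arrays lay above all contralateral arrays, and the gap between the groups was wider than the spread within either. The log2 fold change was 1.52 (SE 0.20, 95% interval 1.08 to 1.96, adjusted p = 0.00278 by limma). At 4 weeks *Ctsk* was at 8.03, 7.87 and 8.60 in DMM cartilage and at 7.25, 7.64 and 7.36 in contralateral cartilage. The groups again did not overlap, and the DMM array of replicate 3 stood above the other two. The log2 fold change at 4 weeks was 0.75 (SE 0.19, adjusted p = 0.103). At 8 weeks the values were 7.84, 7.73 and 6.97 in DMM cartilage and 7.57, 6.83 and 7.68 in contralateral cartilage. The groups overlapped, with 1 low array in each, and the log2 fold change was 0.15 (SE 0.29, 95% interval -0.52 to 0.83, adjusted p = 0.913). Without contralateral replicate 2 of 8 weeks it was -0.11, and without DMM replicate 3 it was 0.43.

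**Figure D1:**
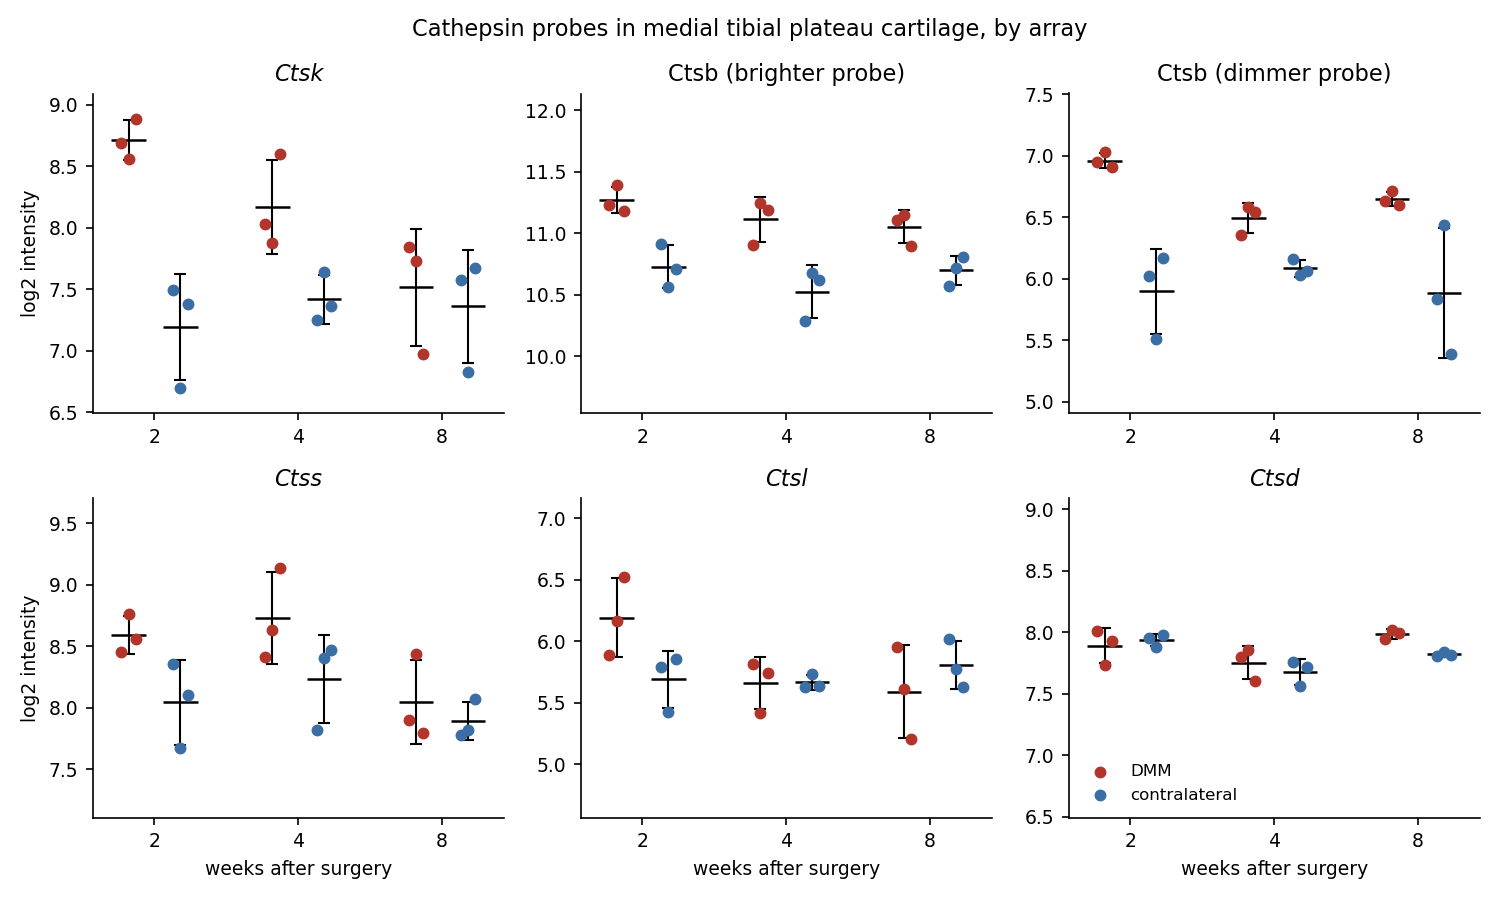
Log2 intensity of each cathepsin probe (vertical axes) at 2, 4 and 8 weeks post surgery in DMM (red, left) and contralateral (blue, right) cartilage. Points are arrays, black bars the mean and SD of 3 arrays; *Ctsk* in DMM cartilage sits at 8.56 to 8.88 at 2 weeks and at 6.97 to 7.84 at 8 weeks, while contralateral *Ctsk* stays between 6.70 and 7.68.

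The panels of the plot by array span the same range of log2 units, so that the spread of the probes can be read side by side. In DMM cartilage *Ctsk* averaged 8.71 ± 0.16, 8.17 ± 0.38 and 7.51 ± 0.47 at 2, 4 and 8 weeks (SD, n = 3 each). In contralateral cartilage it averaged 7.19 ± 0.43, 7.42 ± 0.20 and 7.36 ± 0.46 at the same weeks. The order of the DMM groups therefore ran downward with week, and all arrays of 8 weeks lay below all arrays of 2 weeks. Markers of other cells moved between the DMM groups as well. At 2, 4 and 8 weeks the mean of 15 neutrophil markers was 6.48, 8.56 and 7.41 in DMM cartilage, that of 15 skeletal muscle markers 6.13, 7.54 and 7.37, and that of 17 fibroblast and synovium markers 9.69, 9.33 and 9.26. For 4 against 2 weeks, 13 of the neutrophil and 12 of the muscle markers were called higher, beside 1.79% of all probes. The mean of 17 macrophage markers in DMM cartilage was 7.60, 7.61 and 7.37 at 2, 4 and 8 weeks. That of 12 osteoclast markers was 6.69, 6.83 and 6.58. The part of these cells in the *Ctsk* values was not tested. The *Ctsk* difference in DMM cartilage was -1.20 for 8 against 2 weeks (SE 0.22, 95% interval -1.70 to -0.70, adjusted p = 0.0534), which missed the threshold that 0.639% of all probes passed. It was -0.55 for 4 against 2 weeks (SE 0.18, adjusted p = 0.155), a comparison with 2.54% of probes called. It was -0.65 for 8 against 4 weeks (SE 0.26, adjusted p = 0.410), with 0.0739% called. The 8 against 2 weeks difference passed in several alternative fits: the adjusted p of *Ctsk* was 0.0373 in 1 fit of all 18 arrays and 0.0252 with array weights. It did not pass with cyclic loess, with quantile normalisation of the 6 arrays or with a replicate block. With each array left out in turn, its adjusted p by limma ran from 0.0263 to 0.269.

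The change of the DMM effect on *Ctsk*, 8 minus 2 weeks, was -1.37 on the log2 scale (SE 0.37, 95% interval -2.15 to -0.58). Its p was 0.00176 before adjustment and 0.267 after it in the limma fit of all arrays, in which 0% of probes passed and 2419 had an unadjusted p under 0.05. Averaged over the weeks, the DMM effect on *Ctsk* was 0.81 (SE 0.15, adjusted p = 0.00217). An exact two-sided permutation of the surgery labels within weeks, with 8000 relabelings, gave p = 0.0045 for it. Within a single week 3 arrays against 3 cannot reach an exact p below 0.1. These averages and the weekly effects rest on the same arrays.

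*Ctss* encodes cathepsin S, which stays active near neutral pH and trims the invariant chain in antigen-presenting cells. At 2 weeks it was at 8.46, 8.76 and 8.56 in DMM cartilage, against 8.36, 7.67 and 8.10 in contralateral cartilage. The lowest DMM array lay just above the highest contralateral array. The log2 fold change was 0.55 (SE 0.18, 95% interval 0.16 to 0.94, adjusted p = 0.0989). At 4 weeks *Ctss* was at 8.41, 8.63 and 9.14 in DMM cartilage and at 7.82, 8.40 and 8.47 in contralateral cartilage. The groups overlapped slightly, and the highest value of the series for this probe was DMM replicate 3. The log2 fold change at 4 weeks was 0.50 (SE 0.21, adjusted p = 0.358). At 8 weeks the values were 7.90, 8.43 and 7.80 in DMM cartilage and 7.78, 7.82 and 8.07 in contralateral cartilage, with overlapping groups and a log2 difference of 0.15 (SE 0.20, adjusted p = 0.865). Averaged over the weeks the difference was 0.40 (SE 0.13), with an adjusted p of 0.0576, and the exact permutation p within weeks was 0.01125. The call at 2 weeks was gained without contralateral replicate 1 (adjusted p = 0.0475).

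*Ctsl* encodes cathepsin L, a broad endopeptidase of the lysosome that also processes other lysosomal enzymes. At 2 weeks it was at 5.89, 6.16 and 6.53 in DMM cartilage, against 5.79, 5.42 and 5.86 in contralateral cartilage. The DMM arrays all lay above, the lowest of them by a small margin. The log2 fold change was 0.50 (SE 0.18, 95% interval 0.10 to 0.90, adjusted p = 0.137). At 4 weeks *Ctsl* was at 5.82, 5.42 and 5.74 in DMM cartilage and at 5.63, 5.74 and 5.64 in contralateral cartilage, overlapping groups with a log2 difference of -0.01 (SE 0.14, adjusted p = 0.989). At 8 weeks it was at 5.96, 5.61 and 5.20 in DMM cartilage and at 6.02, 5.77 and 5.63 in contralateral cartilage. These groups overlapped too, and the log2 fold change was -0.22 (SE 0.22, adjusted p = 0.815). The mean DMM effect was 0.09 (SE 0.11, adjusted p = 0.690, exact permutation p = 0.51625). For this dim probe the change of the effect, 8 minus 2 weeks, was -0.72 (SE 0.28, adjusted p = 0.394).

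*Ctsb* encodes cathepsin B, which cuts within proteins and also removes dipeptides from their ends. Its brighter probe was at 11.23, 11.39 and 11.18 in DMM cartilage at 2 weeks, against 10.92, 10.57 and 10.71 in contralateral cartilage. Its dimmer probe was at 6.95, 7.03 and 6.91 in DMM cartilage, against 6.02, 5.51 and 6.17 in contralateral cartilage. Both probes separated the groups without overlap. The log2 fold change at 2 weeks was 0.54 (SE 0.14, adjusted p = 0.0437) by the brighter probe. By the dimmer probe it was 1.06 (SE 0.17, adjusted p = 0.00605). The call of the brighter probe was lost with most single arrays left out: leaving out DMM replicate 1, 2 or 3 gave an adjusted p of 0.114, 0.184 or 0.127, and leaving out contralateral replicate 2 or 3 gave 0.0805 or 0.0829. It held without contralateral replicate 1 (0.0374). With the replicate number as a block it was lost as well (SE 0.15, adjusted p = 0.0731). The log2 fold change was 0.56, 0.48 or 0.58 without DMM replicate 1, 2 or 3. It was 0.46 or 0.53 without contralateral replicate 2 or 3. Of all probes 724, 390 or 424 were called without DMM replicate 1, 2 or 3, against 1525 with no array left out. Without contralateral replicate 2 or 3 the number was 1479 or 1574.

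At 4 weeks the brighter *Ctsb* probe was at 10.91, 11.24 and 11.19 in DMM cartilage and at 10.28, 10.68 and 10.62 in contralateral cartilage. The dimmer probe was at 6.36, 6.59 and 6.55 in DMM cartilage and at 6.16, 6.03 and 6.07 in contralateral cartilage. The log2 fold changes were 0.59 (SE 0.16, adjusted p = 0.117) and 0.41 (SE 0.13, adjusted p = 0.199), again with no overlap. At 8 weeks the brighter probe was at 11.11, 11.15 and 10.90 in DMM cartilage, against 10.58, 10.72 and 10.81 in contralateral cartilage. The dimmer probe was at 6.63, 6.72 and 6.60 in DMM cartilage, against 5.84, 6.44 and 5.39 in contralateral cartilage. Once more each DMM array lay above each contralateral array, so that this held for both probes at all 3 weeks. The log2 fold changes at 8 weeks were 0.35 (SE 0.15, adjusted p = 0.576) and 0.76 (SE 0.25, adjusted p = 0.483).

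Averaged over the weeks, *Ctsb* was higher in DMM cartilage by 0.49 on the log2 scale with the brighter probe (SE 0.084, adjusted p = 0.000921) and by 0.74 with the dimmer one (SE 0.12, adjusted p = 0.000465). The exact permutation p was 0.00025 for each probe, the smallest that the 8000 relabelings can give. In this average 3 of the 6 probes were called higher, the *Ctsk* probe and both *Ctsb* probes, against 4.81% of all probes. The weekly values of the brighter *Ctsb* probe were 0.54, 0.59 and 0.35, and its change of the effect, 8 minus 2 weeks, was -0.19 with a 95% interval of -0.62 to 0.24. The difference between the 2 probes was not tested. The dimmer probe's change, 4 minus 2 weeks, was -0.65 (SE 0.29, adjusted p = 0.896), and the brighter probe's was 0.05 (SE 0.21, adjusted p = 0.988).

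*Ctsd* encodes cathepsin D, the aspartic protease of the lysosome, which degrades aggrecan in acid conditions. At 2 weeks it was at 8.01, 7.73 and 7.93 in DMM cartilage, against 7.96, 7.88 and 7.98 in contralateral cartilage. The groups overlapped, and the log2 fold change was -0.05 (SE 0.13, 95% interval -0.34 to 0.24, adjusted p = 0.879). At 4 weeks it was at 7.80, 7.85 and 7.60 in DMM cartilage and at 7.76, 7.56 and 7.72 in contralateral cartilage, with a log2 difference of 0.07 (SE 0.14, adjusted p = 0.871). At 8 weeks the values were 7.95, 8.02 and 8.00 in DMM cartilage and 7.80, 7.84 and 7.82 in contralateral cartilage. Here the groups did not overlap and the arrays of each lay close together, but the log2 difference of 0.17 (SE 0.14) had an adjusted p of 0.771. The mean effect was 0.06 (SE 0.07, 95% interval -0.08 to 0.21, adjusted p = 0.634, exact permutation p = 0.1905).

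**Figure D2:**
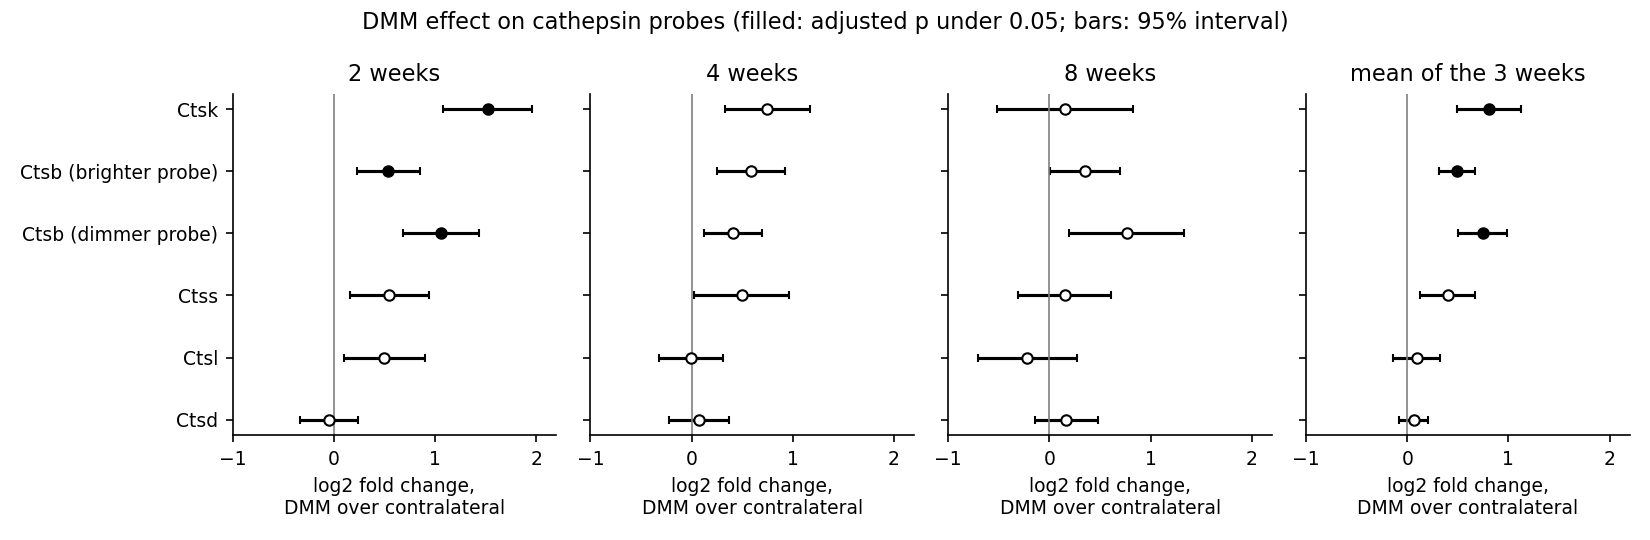
Log2 fold change of DMM over contralateral cartilage (horizontal axis) for each cathepsin probe at 2, 4 and 8 weeks and averaged over the weeks. Points are limma estimates with 95% intervals, filled where the adjusted p is under 0.05; *Ctsk* at 2 weeks, at 1.52, is the largest, and the filled points are *Ctsk* and both *Ctsb* probes at 2 weeks and in the average.

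By array, all 3 DMM values lay above all 3 contralateral values for 5 of the 6 probes at 2 weeks, where 13.6% of all probes did. They did so for 3 of 6 at 4 weeks, *Ctsk* and both *Ctsb* probes, against 9.18% of all probes. At 8 weeks it was 3 of 6 again, both *Ctsb* probes and *Ctsd*, against 7.29%. For 0 probes did the DMM arrays all lie below. Over 2, 4 and 8 weeks the 5 genes had median log2 fold changes of 0.54, 0.50 and 0.15, beside 0.01, 0.00 and 0.01 for all genes. In contralateral cartilage no member passed in any of the 18 tests between weeks, whose log2 differences ran from -0.34 to 0.23. None of the 18 had an unadjusted p under 0.05, and 0.148% of all probes were called for 4 against 2 weeks and 0% for the other two comparisons.

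Single arrays stood out across the members. Contralateral replicate 2 of 2 weeks was the lowest of its group for 6 of 6 probes. On the same array the mean of 8 adipocyte markers was 9.22, against 7.69 and 6.86 on the other two, and that of skeletal muscle markers 8.28, against 7.59 and 7.71. It was also the lowest of its group for macrophage markers, at 6.94 against 7.22 and 7.19. So it was for fibroblast and synovium markers, at 8.44 against 8.99 and 8.84. The same held for osteoclast markers, at 6.49 against 6.54 and 6.57, and chondrocyte markers, at 9.83 against 9.94 and 10.07. Osteoblast and osteocyte markers were lowest there too, at 8.89 against 8.90 and 9.06. This array was the highest of its group for neutrophil markers, at 7.02 against 6.98 and 6.70, and endothelium markers, at 6.58 against 6.19 and 6.04. Without it, *Ctsk* at 2 weeks had a log2 difference of 1.28 (adjusted p = 0.000430), *Ctss* 0.36 (0.192), *Ctsl* 0.37 (0.259), and the brighter *Ctsb* probe 0.46 (0.0805). DMM replicate 3 of 8 weeks was the lowest of its group for 5 of 6 probes, all but *Ctsd*, and on it the mean of 15 neutrophil markers was 6.33, against 8.19 and 7.71 on the other two. Its macrophage mean of 7.15, against 7.52 and 7.43, and its fibroblast and synovium mean of 9.07, against 9.34 and 9.35, were the lowest of the group too. So were its osteoclast mean of 6.45, against 6.71 and 6.58, and its osteoblast and osteocyte mean of 8.94, against 9.36 and 9.11. Its skeletal muscle and endothelium means were also the lowest. Its chondrocyte mean of 9.74, against 9.71 and 9.63, and its adipocyte mean of 7.07, against 6.48 and 6.59, were the highest. Contralateral replicate 2 of 8 weeks, with the lowest *Ctsk* of its group, had a neutrophil mean of 6.46, against 7.94 and 8.40. Its mean of 15 skeletal muscle markers was 9.15, against 7.25 and 7.26. Its macrophage mean of 7.04, against 7.22 and 7.27, and its fibroblast and synovium mean of 8.68, against 8.90 and 8.77, were the lowest. Its chondrocyte mean was the lowest too, at 9.72 against 9.76 and 9.73. Its osteoclast mean of 6.69 lay between 6.59 and 6.71. Its osteoblast and osteocyte mean of 9.23, against 9.02 and 9.05, and its adipocyte mean of 7.94, against 7.63 and 6.64, were the highest. The part of these cell types in the cathepsin values was not tested.

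The other cathepsins and the asparaginyl protease legumain gave 3 higher and 0 lower genes of 11 at 2 weeks, beside 4.07% and 3.16% of all genes. *Ctsc*, a dipeptidyl peptidase that activates granule serine proteases, had a log2 difference of 1.03 (SE 0.14, adjusted p = 0.00295). *Ctsa*, the carboxypeptidase that protects lysosomal galactosidase and sialidase, had 0.88 (SE 0.16, adjusted p = 0.00897), and *Lgmn*, legumain, which processes several cathepsins, 0.78 (SE 0.16, adjusted p = 0.0190). In the mean effect 5 of 11 were higher and 0 lower, with *Ctsh* and *Ctsz* joining these, against 6.07% of all genes higher, and none was called at 4 weeks. The median of the 11 at 2 weeks was 0.24. Of the inhibitors, 6 of 19 listed cystatins and kininogens were measured. At 2 weeks 2 were higher, *Kng1*, a kininogen, at 0.84 (adjusted p = 0.00627) and *Cstb*, stefin B, at 0.62 (adjusted p = 0.0173), and 0 were lower. *Kng1* was higher at 4 weeks as well, at 1.38 (adjusted p = 0.0137), and *Kng2* was lower in the mean effect, at -0.27 (adjusted p = 0.0292). *Cst3*, cystatin C, the main secreted inhibitor, had a 2-week value of -0.26 (adjusted p = 0.280).

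The other lysosomal genes were counted at 2 weeks by role, beside 4.07% of all genes called higher and 3.16% called lower. Among 16 genes of enzyme transport and lysosome control, 1 was higher, *Igf2r*, the cation-independent mannose 6-phosphate receptor, at 0.89 (adjusted p = 0.0113), and 1 lower, *Ctns*, the cystine exporter, at -0.83 (adjusted p = 0.0190). Among 15 membrane and saposin genes, 2 were higher, *Laptm5* at 0.70 and *Cd63* at 0.62, and 1 lower, the metal transporter *Slc11a1*, at -0.68. Of 24 hydrolases 2 were higher, the galactosidase *Glb1* at 0.60 and the glucuronidase *Gusb* at 0.49, and 0 lower. Of 17 subunits of the proton pump that acidifies the lysosome, 1 was higher, *Atp6ap2* at 0.53, and 0 lower. Counts of 1 gene in lists of this size lie near the shares over all genes. The list medians were -0.06, 0.36, 0.18 and 0.14 in that order. In the mean effect the hydrolases *Glb1* (0.54), *Manba* (0.43), *Asah1* (0.36), *Gusb* (0.34) and *Naglu* (0.28) were called higher, and none lower. Of the membrane and saposin list *Lipa* (0.52), *Lamp2* (0.34) and *Npc2* (0.29) were higher and *Slc11a1* (-0.35) lower. *Igf2r* (0.49) and *Atp6ap2* (0.35) were higher and *Ctns* (-0.56) lower. Of all genes 6.07% were called higher and 5.04% lower in the mean effect. The study listed lysosome genes from its changes at 2 weeks, though its text did not name the lysosome among the enriched pathways. Its list includes *Ctsk* and *Ctsb*. Beside these members, 9 others were on that list, and 7 of them were higher and 0 lower. They were chosen on these samples, all 9 stand in the lists above, and the count is not independent evidence of direction.

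**Figure D3:**
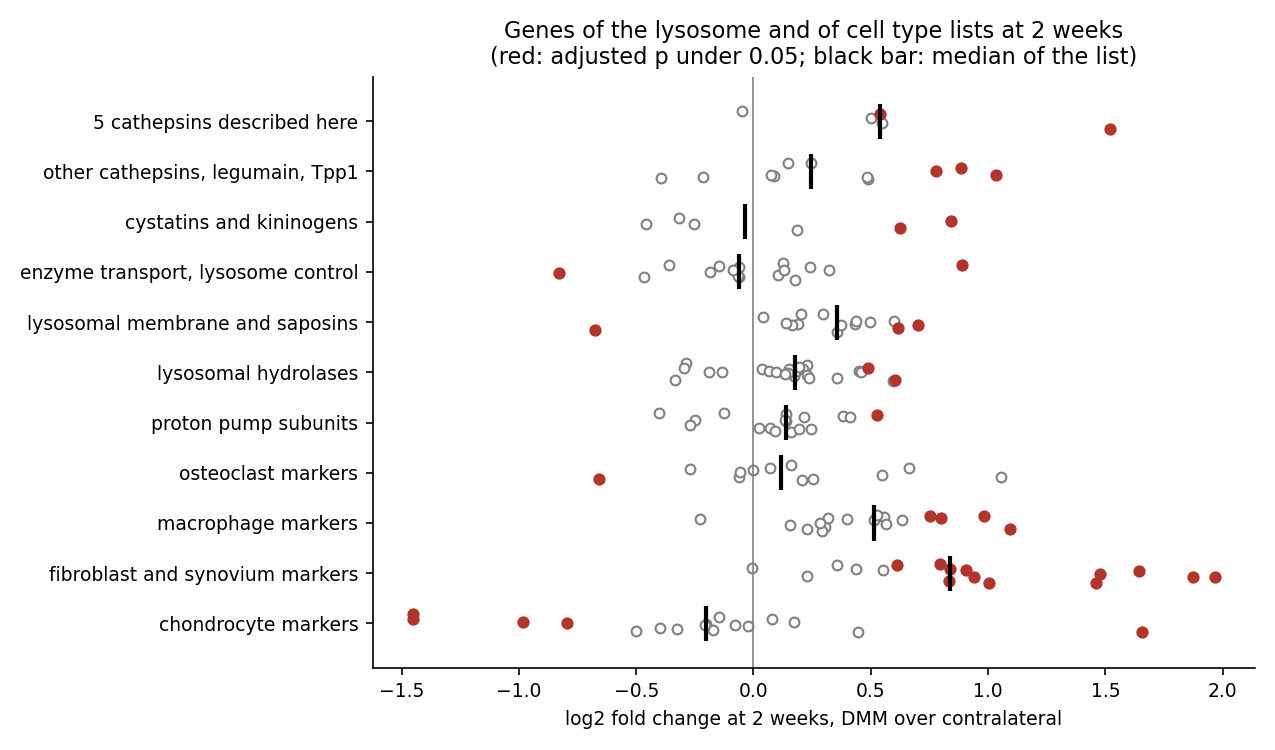
Log2 fold change at 2 weeks, DMM over contralateral (horizontal axis), of the 5 cathepsins by their brightest probe and of the genes of 10 lists, with 1 point per gene. Red points have an adjusted p under 0.05, open points do not, and the black bar is the median; the medians are 0.54 for the 5 cathepsins, 0.51 for macrophage markers and 0.84 for fibroblast and synovium markers.

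Among 13 matrix substrates and collagen-degrading proteinases 5 were higher at 2 weeks and 0 lower, beside 4.07% and 3.16% of all genes. *Mmp3*, stromelysin, was at 2.04 (SE 0.18, adjusted p = 0.000440), *Mmp2*, a gelatinase, at 2.01 (SE 0.32, adjusted p = 0.00578) and *Mmp14*, a membrane collagenase that activates it, at 1.65 (SE 0.29, adjusted p = 0.00921). At 4 weeks 2 were higher, *Mmp2* at 1.63 and *Mmp3* at 1.96, beside 0.452% of all genes. Beside these, *Ctsk* had 1.52 at 2 weeks and 0.75 at 4 weeks.

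The tissue label was checked against its markers. *Col2a1*, *Acan*, *Sox9* and *Comp*, which define chondrocytes, averaged 11.5 to 13.2 over the arrays, with at least 99.6% of probes dimmer. Of 17 chondrocyte markers 1 was higher at 2 weeks, *Col9a1*, and 4 lower, among them *Ucma* and *Cytl1*, both at -1.45. Of all genes 4.07% were higher and 3.16% lower, and the count of 1 higher lies near that share. Osteoclasts express *Ctsk* strongly, and 12 of 15 listed osteoclast markers were measured. None was higher at 2 weeks and 1 was lower, *Car2*, carbonic anhydrase 2, at -0.66 (adjusted p = 0.0255). These counts lie near the 4.07% and 3.16% of all genes. The defining markers *Acp5*, *Ocstamp*, *Oscar* and *Atp6v0d2* averaged 6.59, 6.13, 6.18 and 5.88, with 52.2%, 30.5%, 33.2% and 9.81% of probes dimmer, and had 2-week values of 0.21, -0.27, -0.06 and 0.16. *Calcr* and *Dcstamp* were not analysed here. The mean of the list ran from 6.57 to 6.80 on the DMM arrays and from 6.49 to 6.57 on the contralateral arrays at 2 weeks. At 4 weeks it ran from 6.72 to 6.89 in DMM and from 6.66 to 6.71 in contralateral cartilage, and here the groups did not overlap. At 8 weeks it ran from 6.45 to 6.71 in DMM and from 6.59 to 6.71 in contralateral cartilage. In the mean effect 1 of the 12 was higher, *Ostm1*, a partner of the chloride transporter of lysosomes and osteoclasts, at 0.42 (adjusted p = 0.0143), and 0 were lower. That count lies near the 6.07% of all genes called higher in the mean effect.

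Of the 17 macrophage markers measured, 4 were higher at 2 weeks and 0 lower, beside 4.07% and 3.16% of all genes. *Adgre1*, a surface antigen of mature macrophages, was at 1.09 (adjusted p = 0.00656), *Ms4a7* at 0.98 (adjusted p = 0.0272) and the complement gene *C1qb* at 0.80 (adjusted p = 0.00771). The defining markers *Csf1r* and *Mrc1* did not pass; *Cd68* was not analysed here. The list mean ran from 7.46 to 7.75 in DMM and from 6.94 to 7.22 in contralateral cartilage at 2 weeks. At 4 weeks it ran from 7.47 to 7.80 in DMM and from 6.99 to 7.37 in contralateral cartilage. At 8 weeks it ran from 7.15 to 7.52 in DMM and from 7.04 to 7.27 in contralateral cartilage. In the mean effect *Adgre1* (0.68), *Ms4a7* (0.66), *C1qb* (0.56), *Lyz2* (0.54), *C1qc* (0.53), *C1qa* (0.53) and *Mpeg1* (0.47) were called higher. No macrophage marker was called lower in it and the others were not called. Of all genes 6.07% were called higher and 5.04% lower in the mean effect. Of 17 fibroblast and synovium markers 12 were higher at 2 weeks and 0 lower, with *Postn* at 1.97, *Thy1* at 1.87 and *Lum* at 1.65. Their list mean ran from 9.64 to 9.78 in DMM and from 8.44 to 8.99 in contralateral cartilage at 2 weeks, and at 8 weeks from 9.07 to 9.35 in DMM and from 8.68 to 8.90 in contralateral cartilage. Averaged over the weeks *Postn* was at 1.41, *Lum* at 1.41 and *Thy1* at 1.18, all called higher, and no gene of this list was called lower. In the opposite direction, 13 of 15 skeletal muscle markers were lower at 2 weeks and 12 at 4 weeks, beside 3.16% and 0.348% of all genes. The part of osteoclast, osteoblast, osteocyte, macrophage, fibroblast and muscle RNA in the cathepsin differences was not tested.

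**Figure D4:**
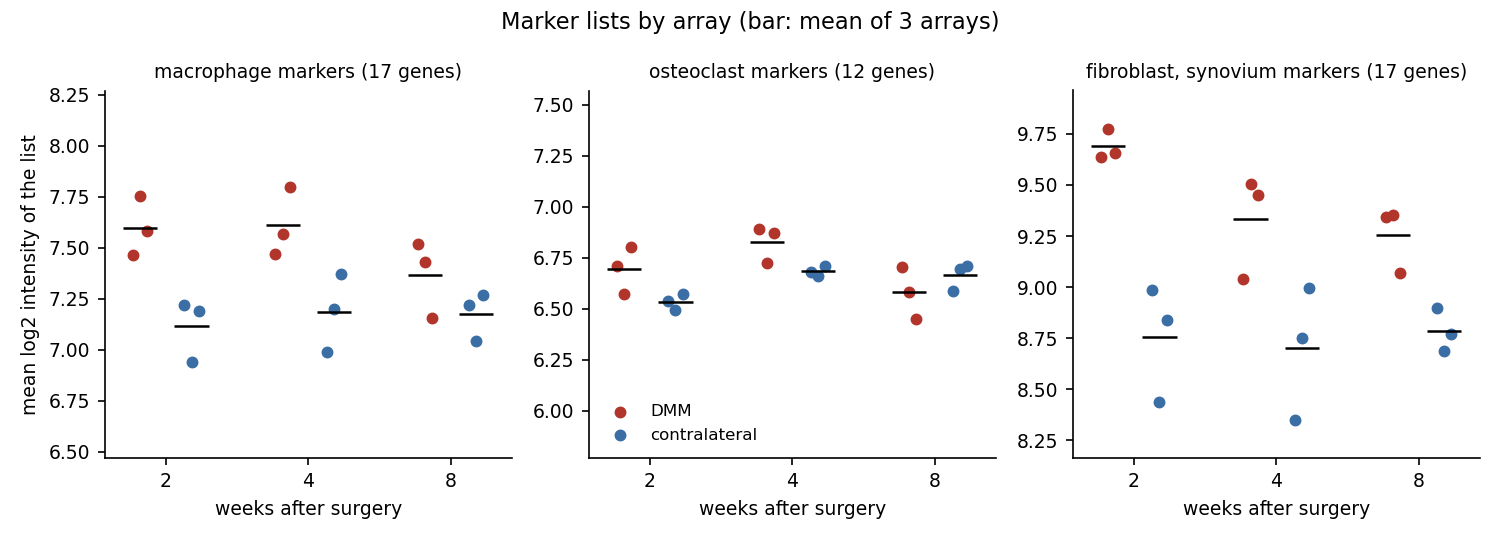
Mean log2 intensity of macrophage, osteoclast and fibroblast or synovium markers (vertical axes) by array at 2, 4 and 8 weeks, DMM in red at left and contralateral in blue at right, with bars at the mean of 3 arrays. At 2 weeks the DMM and contralateral arrays are apart by a wide gap for fibroblast markers, 9.64 to 9.78 against 8.44 to 8.99, and meet for osteoclast markers, 6.57 to 6.80 against 6.49 to 6.57.

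The genes nearest to each cathepsin in profile were found by the root mean square difference of log2 values over the 18 arrays, after centring each profile on its mean. For *Ctsk* these were *Loxl1*, a lysyl oxidase of elastic fibres (0.25), *BC028528* (0.25) and *Fam180a* (0.27), against 0.62 for the spread of *Ctsk* about its own mean and a median of 0.65 over all genes. *Loxl1* had log2 fold changes of 1.29, 0.79 and 0.25 at 2, 4 and 8 weeks. The nearest genes were chosen for likeness to the member on these same arrays, so their similar course follows from that choice. For the brighter *Ctsb* probe they were *Dab2*, an endocytic adaptor, at 0.12, the receptor phosphatase gene *Ptprs* at 0.13 and *Lmna*, encoding lamin A, at 0.13, against 0.29 for its own spread. For *Ctss* they were *Adam10*, a membrane sheddase (0.18), *Gng2* (0.20) and *Tagln2* (0.21), against 0.39. For *Ctsl* the nearest, *Slco2a1*, a prostaglandin transporter, was at 0.17 against 0.29, followed by *Ube4b* and *H2-T10* at 0.18 each. For *Ctsd* the nearest were *Gpatch11* (0.094), *Wdr75* (0.098) and *Ifi27* (0.10), against 0.13 for the spread of *Ctsd* itself.

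**Figure D5:**
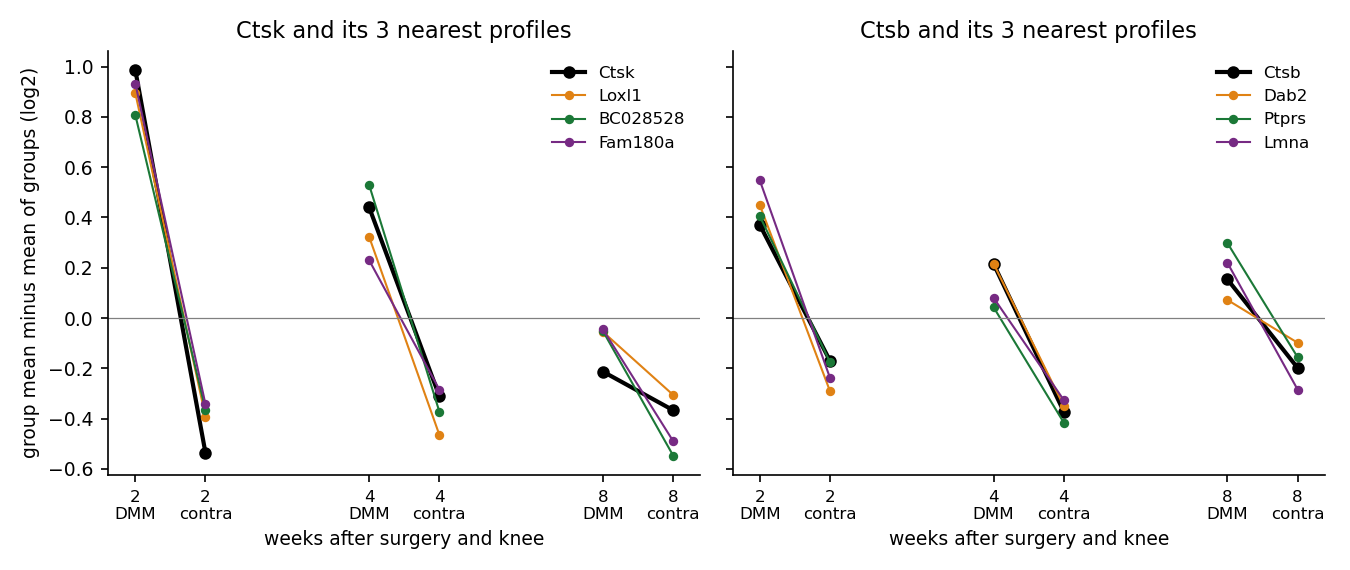
Group means of *Ctsk* (left panel, black), of the brighter *Ctsb* probe (right panel, black) and of the 3 genes nearest to each in profile, as log2 intensity minus the mean of the 6 groups (vertical axis), by week and knee with DMM left of contralateral. In both panels every gene has its highest point in DMM at 2 weeks and keeps DMM above contralateral at 2, 4 and 8 weeks. The neighbours were picked for a similar profile on these arrays, so this likeness is not a separate result. The DMM mean falls at each later week for *Ctsk*, its neighbours, *Ctsb* and *Dab2*. For *Ptprs* and *Lmna* it is lower at 4 than at 8 weeks.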

How the data were processed

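RNA of pooled cartilage was amplified in 2 rounds, labelled with biotin and hybridised to Illumina Mouse WG-6 v2.0 arrays. The authors quantile-normalised the signals with lumi 2.8.0 in R 2.15.0, and the deposited values are log2 intensities of 22999 probes. Array medians lay between 6.55 and 6.56, so normalisation leaves no overall difference between arrays. A table of unnormalised signals with 36 columns was not used, since its column names match no label. The annotation gave 1 gene for 18998 probes.

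Groups were compared with limma 3.58.1 (R 4.3.3), each pair in a fit of its 6 arrays, with all 18 arrays fitted for mean effects and changes of effect. Benjamini-Hochberg adjustment ran over all probes, at a threshold of 0.05. A gene was represented by its brightest probe. The fits were tested on simulated data. Figures used matplotlib 3.10.9.

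The members and gene lists were chosen with earlier results of these data known. Named genes were the members, up to 3 called genes in each direction per list, those with the largest change at 2 weeks, the defining markers of osteoclasts, macrophages and chondrocytes, and the 3 nearest profiles of each member. *Cst3*, *Ctsh*, *Ctsz*, *Ostm1*, *Lyz2*, *C1qa*, *C1qc*, *Mpeg1*, *Naglu*, *Manba*, *Asah1*, *Lamp2*, *Npc2* and *Lipa* were named after their values were seen. Of 11 other cathepsins, 5 stand in another list. Alternatives were other fits, normalisations, probe choices and leaving out each array. Precision is limited by 3 pools per group.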

Additional observations from a re-analysis of the deposited data

How the results depend on the processing

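The weekly calls were few and rested on 3 pools a group. The number of cathepsin genes called at 2 weeks, 2 as reported, was 1 with a replicate block, where *Ctsb* had an adjusted p of 0.0731. At 4 weeks, 0 as reported, it was 1 with an intensity trend and robust variances (*Ctsb*, 0.0345). For 8 against 2 weeks in DMM cartilage, 0 as reported, *Ctsk* made it 1 in the fit of all 18 arrays (0.0373), with trend and robust variances (0.0349), with array weights (0.0252), with a gene's probes averaged (0.0494) and with the dimmer probes left out (0.0309). The mean effect on *Ctss* passed with trend and robust variances (0.0447) and with the dimmer probes left out (0.0380), which also left *Ctsl* and the dimmer *Ctsb* probe without a value. Cyclic loess and quantile normalisation of the 6 arrays alone changed no call. A background correction was not run, because the columns of unnormalised signal match no label. The cause of these changes was not tested.

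Taking the mean of both *Ctsb* probes turned 4 uncalled values of *Ctsb*: 8 against 4 weeks to 0.046 in DMM and -0.013 in contralateral cartilage, and the change of the DMM effect to -0.30 for 4 minus 2 weeks and 0.059 for 8 minus 4 weeks.

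The replicate numbers were checked for pairing. Same-numbered DMM and contralateral arrays had correlations of their deviations of -0.102, -0.0154 and 0.0967 at 2 weeks, 0.135, 0.0554 and 0.0684 at 4 weeks and -0.0178, -0.0334 and -0.0946 at 8 weeks. These values are small and of mixed sign, though all 3 were above 0 at 4 weeks. Both knees of the same mice were used, but which pools share mice is not stated, so whether the numbers pair the arrays is unknown and arrays were compared unpaired. The replicate block changed no other call.

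Leaving out each array in turn gave 1 to 3 called genes at 2 weeks, 0 to 1 for 4 against 2 weeks and 0 to 1 for 8 against 2 weeks in DMM cartilage. The *Ctsk* call for 4 against 2 weeks appeared without DMM replicate 3 of 4 weeks (adjusted p = 0.0184), and that for 8 against 2 weeks without DMM replicate 1 or 3 of 8 weeks (0.0391 and 0.0263). The mean effect on *Ctss* ran from 0.33 to 0.45, with adjusted p from 0.0369 to 0.130, and passed without contralateral replicate 1 of 2 weeks (0.0373), DMM replicate 1 (0.0369) or contralateral replicate 3 of 4 weeks (0.0483), or DMM replicate 3 (0.0421) or contralateral replicate 3 of 8 weeks (0.0483). Values not called that crossed zero had these ranges. In DMM against contralateral cartilage they were -0.11 to 0.032 for *Ctsd* at 2 weeks, -0.087 to 0.11 for *Ctsl* at 4 weeks, and -0.11 to 0.43 for *Ctsk* and -0.043 to 0.27 for *Ctss* at 8 weeks. In DMM cartilage they were -0.071 to 0.29 for *Ctss* at 4 against 2 weeks, and -0.25 to 0.12 for *Ctsl* and -0.16 to 0.015 for *Ctsb* at 8 against 4 weeks. In contralateral cartilage at 4 against 2 weeks they were -0.021 to 0.38 for *Ctsk* and -0.16 to 0.059 for *Ctsl*. At 8 against 2 weeks they were -0.077 to 0.43 for *Ctsk*, -0.34 to 0.0062 for *Ctss*, -0.018 to 0.20 for *Ctsl* and -0.11 to 0.064 for *Ctsb*, and at 8 against 4 weeks -0.21 to 0.21 for *Ctsk*. The change of the DMM effect, 4 minus 2 weeks, ran from -0.26 to 0.13 for *Ctss* and from -0.075 to 0.15 for *Ctsb*.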
